A study of Homo sapiens with 2 samples.

Results

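The TAM receptors AXL, MERTK and TYRO3, their ligands GAS6 and PROS1 and the ABL kinases ABL1 and ABL2 were followed in RNA sequencing of PC9, an established cell line from a human lung adenocarcinoma that carries an activating EGFR mutation. They were taken from the deposited gene table by symbol, which found 7 of 7 among 16642 genes. The table compares 2 libraries, 1 per group. One is labelled PC9-TAZ4SA and comes from cells with TAZ4SA, a mutationally activated form of TAZ (gene WWTR1), which co-activates transcription. The other is the PC9 control. The shared protocol names the lentiviral vectors pLVX-Tet-On Advanced and pLVX-TP-3F-TAZ4SA, joined by "and/or", and induction by 50 ng/mL doxycycline for 24 h before RNA was harvested. It does not say which vector, or whether doxycycline, the control cells received. The series set out to find genes that depend on TAZ, and AXL and ABL2 are among those the study followed further.

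TAM receptors are receptor tyrosine kinases with immunoglobulin-like and fibronectin-type domains outside the cell. Their ligands are secreted vitamin K-dependent proteins, which bridge the receptors to phosphatidylserine on membranes. GAS6 binds all TAM receptors, whereas PROS1, the anticoagulant protein S, activates MERTK and TYRO3. ABL kinases are cytoplasmic tyrosine kinases that act on the actin cytoskeleton, adhesion and, for ABL1, nuclear responses, and AXL is known in lung adenocarcinoma for its link to resistance to EGFR inhibitors.

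Depth was 29668388 reads in the TAZ4SA library and 47684754 in that of the control. Levels are the authors' normalized counts, that is, reads divided by 1 size factor per library. Folds are plain ratios of these levels, and each bracketed range is an exact 95% interval for counting error only, since reads are not independent molecules and cultures were not replicated. No p-value can be given for the conditions. WWTR1 (ENSG00000018408) stood at 15628 normalized counts with TAZ4SA against 4933 without, a ratio of 3.17 (3.07 to 3.27) in the direction of the label; reads of the construct and of the cells' own gene are not separated. The epithelial markers EPCAM, KRT8, KRT18, KRT19 and CDH1 summed to 263747 normalized counts in TAZ4SA and 222338 in the control. Of 6 leukocyte and macrophage markers, 3 were in the table and summed to 79.8 against 46.8 normalized counts. PTPRC, CD14 and CD163 have no value here. Of 4 endothelial markers, 2 were in the table and summed to 1369 against 1607 normalized counts, nearly all from CDH5. Of 4 fibroblast markers, COL1A1 alone was in the table, at 490 against 413.

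A gene was called higher or lower when the mean of its normalized counts reached 20, its ratio on the log2(normalized count + 1) scale reached 1.5-fold and its interval excluded a ratio of 1. All 7 genes passed the minimum of 20, PROS1 only through its TAZ4SA value. With 6.30 normalized counts in the control, PROS1 could be counted as measured only with a ratio past 1.5-fold and also past 2-fold. AXL, GAS6, PROS1 and ABL2 were called higher, 4 of 7, and 0 were called lower. Among all 14074 genes measured at that minimum, 4.16% were called higher and 4.44% lower. The same 4 genes, PROS1 under that same limit, were past 2-fold, a size reached upward by 1.9% and downward by 1.56% of the measured genes. The 7 genes were chosen with earlier results of these data known, AXL and ABL2 among them. These shares are therefore a description beside the 4 of 7, not a test of it. In bulk RNA of this kind, more cells with a transcript and more transcript per cell cannot be told apart.

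**Figure D1:**
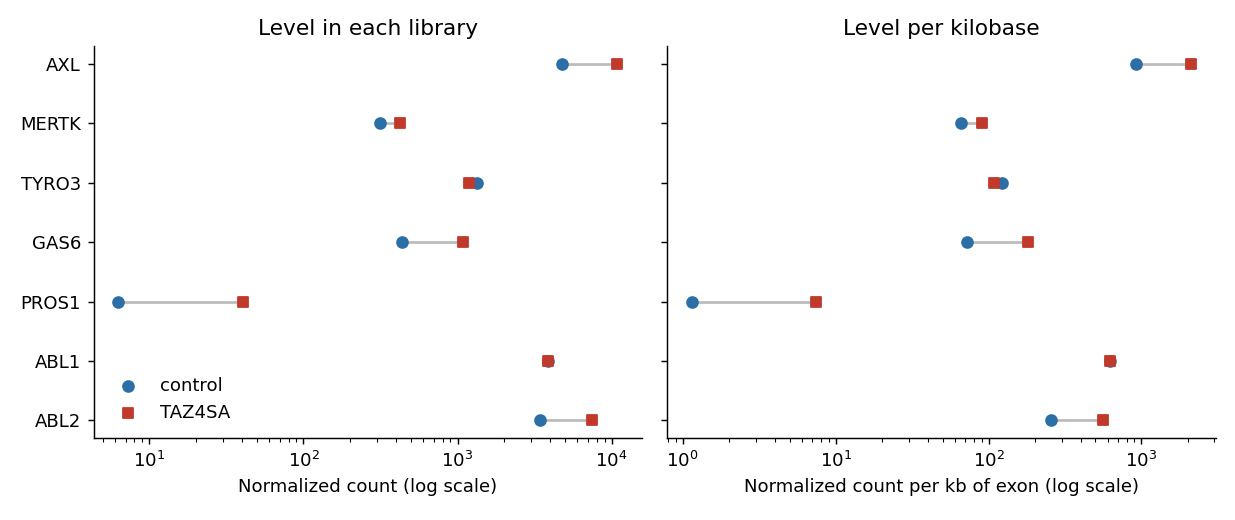
Normalized count (left) and normalized count per kilobase of annotated exon (right) of each gene on logarithmic axes, control as blue circles and TAZ4SA as red squares, 1 library each. AXL, GAS6, PROS1 and ABL2 are shifted to the right in TAZ4SA, MERTK less so, while ABL1 (3887 and 3880 normalized counts) and TYRO3 nearly coincide.

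The upstream sequence of 4 genes is shown first, because AXL, ABL2 and GAS6 were higher together while TYRO3, a paralog of AXL, was not. TAZ binds DNA through TEAD factors, often beside AP-1, so 250 bases before each RefSeq start (GRCh38.p14) were searched on both strands for the TEAD core GGAATG and for the AP-1 site TGANTCA. The RefSeq table gave 9 such windows for 7 of the 7 genes. All windows with a match are printed, so the printed set is not a fair sample. AXL and TYRO3 have a further window each, without a match, that is not printed. PROS1, also higher and without a match, is not printed either. Capitals mark the matches, and sequences read 5′ to 3′ on the gene's strand.
AXL, internal start, chr19:41226505-41226754, plus strand: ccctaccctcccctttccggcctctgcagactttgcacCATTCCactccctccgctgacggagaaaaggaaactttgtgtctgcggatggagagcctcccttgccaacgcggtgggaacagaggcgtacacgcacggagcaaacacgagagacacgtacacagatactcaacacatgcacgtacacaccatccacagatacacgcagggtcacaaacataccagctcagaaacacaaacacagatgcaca
ABL2, downstream start, chr1:179143077-179143326, minus strand: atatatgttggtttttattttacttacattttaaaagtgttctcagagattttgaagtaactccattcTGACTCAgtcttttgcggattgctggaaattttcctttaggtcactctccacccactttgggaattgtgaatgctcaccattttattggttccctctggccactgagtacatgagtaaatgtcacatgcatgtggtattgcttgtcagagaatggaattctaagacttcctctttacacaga
GAS6, chr13:113864077-113864326, minus strand: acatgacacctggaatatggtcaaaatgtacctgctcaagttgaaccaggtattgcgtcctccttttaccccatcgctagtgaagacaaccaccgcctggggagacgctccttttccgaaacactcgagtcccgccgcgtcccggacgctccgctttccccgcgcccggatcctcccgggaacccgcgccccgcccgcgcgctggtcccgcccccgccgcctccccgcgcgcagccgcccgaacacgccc
TYRO3, chr15:41558962-41559211, plus strand: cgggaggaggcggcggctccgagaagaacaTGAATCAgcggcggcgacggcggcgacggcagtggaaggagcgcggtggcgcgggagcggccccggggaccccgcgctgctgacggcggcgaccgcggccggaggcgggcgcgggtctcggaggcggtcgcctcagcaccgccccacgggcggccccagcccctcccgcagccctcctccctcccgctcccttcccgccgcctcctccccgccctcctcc

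The TEAD core was present in 1 of the 9 windows, before the internal start of AXL, 212 bases upstream and on the opposite strand. The AP-1 site, searched with any base allowed at N, was present in 2. It read TGACTCA before the start of ABL2 at 182 bases and TGAATCA before that of TYRO3 at 220 bases. Of 35097 windows of the same length, 11.9% held the TEAD core and 6.57% the AP-1 site in this broad form. The windows of GAS6, PROS1, MERTK and ABL1, that of the main start of AXL and a further one of TYRO3 held neither. A match thus occurred both in genes that were higher and in one that was not, and the absence of these letters says nothing about the factors. The window of ABL2 has a GC content of 37.6%, against 78.4% for that of ABL1 and a median of 58% over all windows searched. The table holds 1 start for ABL2, the downstream one, and the deposited counts do not separate transcripts from different starts.

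Among the receptors, AXL (ENSG00000167601, chromosome 19) was the one past the 1.5-fold call. It had 10793 normalized counts in TAZ4SA, from 7441 reads, and 4748 in the control, from 5277 reads. That is 2.27-fold higher (2.19 to 2.36), the 190th highest log2 ratio of the 14074 measured genes. MERTK (ENSG00000153208, chromosome 2), a receptor known for the clearance of dying cells by macrophages and retinal pigment epithelium, had 424 normalized counts in TAZ4SA and 312 in the control. Its ratio of 1.36 (1.16 to 1.59) was above 1 by more than counting error but under the 1.5-fold call. Of the leukocyte and macrophage markers with values, ITGAM had 46.4 against 18.9 normalized counts and was called higher, CSF1R had 26.1 against 14.4 with an interval that included 1, and CD68 went the other way at 7.25 against 13.5, also with 1 in its interval. Their part in the MERTK value was not tested. TYRO3 (ENSG00000092445, chromosome 15), known mainly from neural tissue, stood at 1184 normalized counts in TAZ4SA and 1337 in the control. This is a 1.13-fold lower level (1.04 to 1.23), the one ratio below 1 among the 7 genes. Reads of TYRO3 may be shared with its processed pseudogene TYRO3P, and how such reads were counted is not stated.

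The receptors could be compared with each other without any scaling, since library size and gene length cancel in an odds ratio of reads. The odds of an AXL read against a TYRO3 read were 2.57 times greater in TAZ4SA than in the control (2.34 to 2.82). Against MERTK the odds ratio of AXL was 1.68 (1.42 to 1.97), and that of MERTK against TYRO3 was 1.53 (1.28 to 1.84). No interval held 1, so the ratios of the receptors differed from each other by more than counting error. AXL made up 74.2% of TAM receptor reads in the control (exact 95% interval 73.2 to 75.2) and 87.04% in TAZ4SA (86.3 to 87.7). The share of TYRO3 was 20.9% in the control and 9.54% in TAZ4SA, and that of MERTK was 4.88% and 3.42%. Per kilobase of annotated exon, AXL accounted for 83.01% of the receptor level in the control and 91.4% in TAZ4SA. AXL was therefore the leading TAM receptor in both libraries on either scale.

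**Figure D2:**
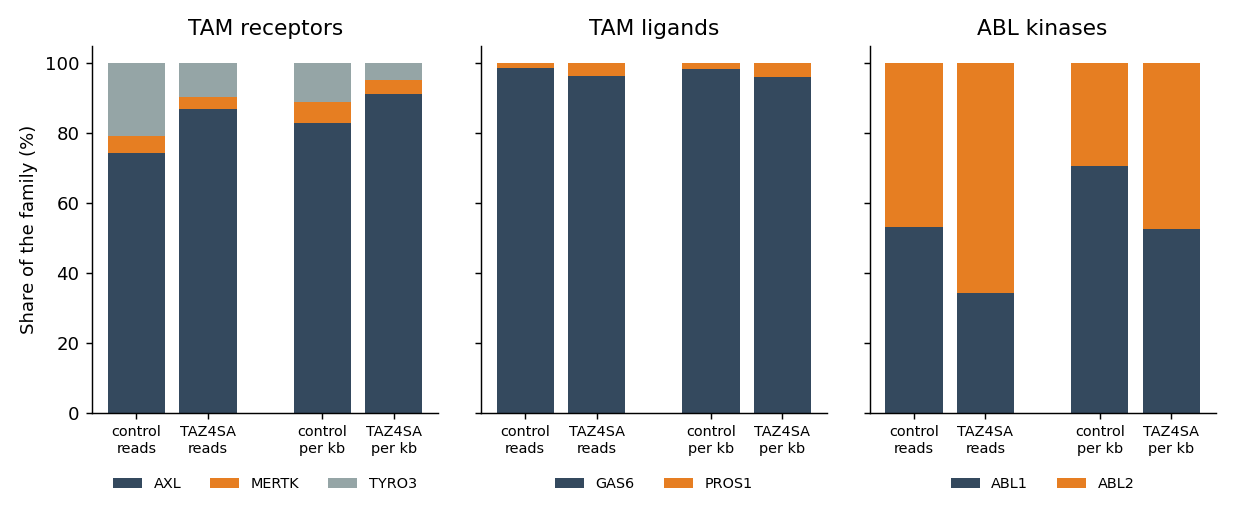
Share of each family's total, in percent, taken by each gene in the control and TAZ4SA libraries, by reads (left pair of bars in each panel) and by level per kilobase (right pair), 1 library per bar. AXL holds 74.2% of receptor reads in the control and 87.04% in TAZ4SA, and ABL2 46.8% and 65.6% of ABL reads while staying under ABL1 per kilobase.

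Both ligand genes were higher. GAS6 (ENSG00000183087, chromosome 13), first found as a gene expressed in growth-arrested cells, had 1085 normalized counts in TAZ4SA, from 748 reads, and 435 in the control, from 484 reads. It was 2.49-fold higher (2.22 to 2.80). PROS1 (ENSG00000184500, chromosome 3) was scarcely detected, with 40.6 normalized counts against 6.30. These rest on 28 reads in TAZ4SA and 7 in the control, and the ratio of 6.45 has a wide interval (2.75 to 17.5). The direction lies outside counting error, but the size is poorly fixed. A pseudogene of PROS1, PROS2P, is a near copy that could also share its few reads. The odds ratio of PROS1 against GAS6 was 2.59 (1.09 to 7.07), with its lower bound close to 1. GAS6 supplied 98.6% of ligand reads in the control (97.1 to 99.4) and 96.4% in TAZ4SA (94.8 to 97.6).

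The neighbour of GAS6 on the opposite strand differed in the same direction. GAS6-AS2 (ENSG00000272695), a long intergenic RNA gene, starts 101 bases from GAS6 in GENCODE 29, where it is named GAS6-DT, and it does not overlap GAS6. It had 56.6 normalized counts in TAZ4SA, from 39 reads, and 13.5 in the control, from 15 reads, a 4.19-fold difference (2.26 to 8.18). As with PROS1, its mean reached the minimum for a measured gene only through its TAZ4SA value. From its control level, GAS6-AS2 could be counted as measured only if it was higher in TAZ4SA. Its start lies within the GAS6 stretch printed above. A different antisense gene, GAS6-AS1, does overlap exons of GAS6 in that annotation and has no value here. AXL likewise has an overlapping antisense gene, and without knowledge of strand the reads of the 2 strands cannot be separated for either gene.

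The ABL kinases also parted. ABL2 (ENSG00000143322, chromosome 1), also called ARG, binds actin and is best known for its part in cell edges and invasive protrusions. It had 7421 normalized counts in TAZ4SA, from 5116 reads, and 3415 in the control, from 3795 reads. It was 2.17-fold higher (2.08 to 2.27). ABL1 (ENSG00000097007, chromosome 9), the proto-oncogene fused to BCR in chronic myeloid leukaemia, was nearly level, at 3887 normalized counts in TAZ4SA and 3880 in the control. Its ratio was 1.002 (0.954 to 1.05), and the sign of its log2 ratio changed with the scaling used. The odds ratio of ABL2 against ABL1 was 2.17 (2.03 to 2.31). ABL2 took 46.8% of ABL reads in the control (45.7 to 47.9) and 65.6% in TAZ4SA (64.6 to 66.7). Its annotated exons span 13257 bases against 6276 for ABL1, so levels per kilobase are given as well. These rest on annotated length, since the counts do not show which transcripts were present. Per kilobase, ABL2 stood at 258 normalized counts in the control and 560 in TAZ4SA, while ABL1 stood at 618 and 619. ABL2 thus exceeded ABL1 in reads in TAZ4SA and remained below it per kilobase of annotated exon in both libraries.

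**Figure D3:**
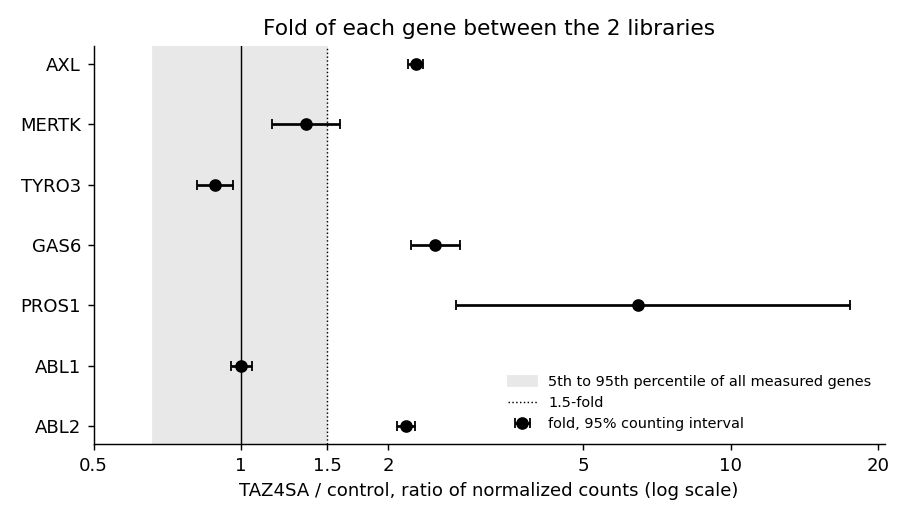
Ratio of normalized counts, TAZ4SA over control, for each gene on a logarithmic axis, with bars for the 95% counting interval and a grey band from the 5th to the 95th percentile of all measured genes. AXL, GAS6, PROS1 and ABL2 lie to the right of the band, MERTK, ABL1 and TYRO3 within it, and the bar of PROS1 (2.75 to 17.5) is the widest.

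Ordered by ratio, the genes ran PROS1, GAS6, AXL, ABL2, MERTK, ABL1, TYRO3. GAS6 and AXL were not distinguishable, with an odds ratio of 1.10 (0.971 to 1.24). AXL and ABL2 were not distinguishable either, at 1.05 (0.990 to 1.11). GAS6 and ABL2, at the ends of that trio, gave 1.15 (1.01 to 1.30). ABL2 and MERTK were separate, at 1.60 (1.36 to 1.89), as were MERTK and ABL1, at 1.35 (1.15 to 1.60), and ABL1 and TYRO3, at 1.13 (1.03 to 1.25). These intervals hold counting error only, and variation between cultures could be larger. In the authors' deposited table the log2 fold change was 1.18 for AXL, 1.12 for ABL2, 1.32 for GAS6, 2.69 for PROS1, 0.44 for MERTK, 0.0028 for ABL1 and -0.18 for TYRO3.

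Summed over each family, the 3 receptors reached 12400 normalized counts in TAZ4SA and 6397 in the control, 1.94-fold higher (1.88 to 2.001). The difference in normalized counts was 6045 for AXL, 111 for MERTK and -153 for TYRO3. The 2 ABL genes summed to 11308 against 7294 normalized counts, 1.55-fold higher (1.503 to 1.60), with 4006 of the difference from ABL2. The ligands summed to 1126 against 442 normalized counts, 2.55-fold higher (2.27 to 2.86). Per kilobase, AXL exceeded the 2 ligands together in each library, at 921 normalized counts per kilobase against 73.7 in the control and 2094 against 188 in TAZ4SA.

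**Figure D4:**
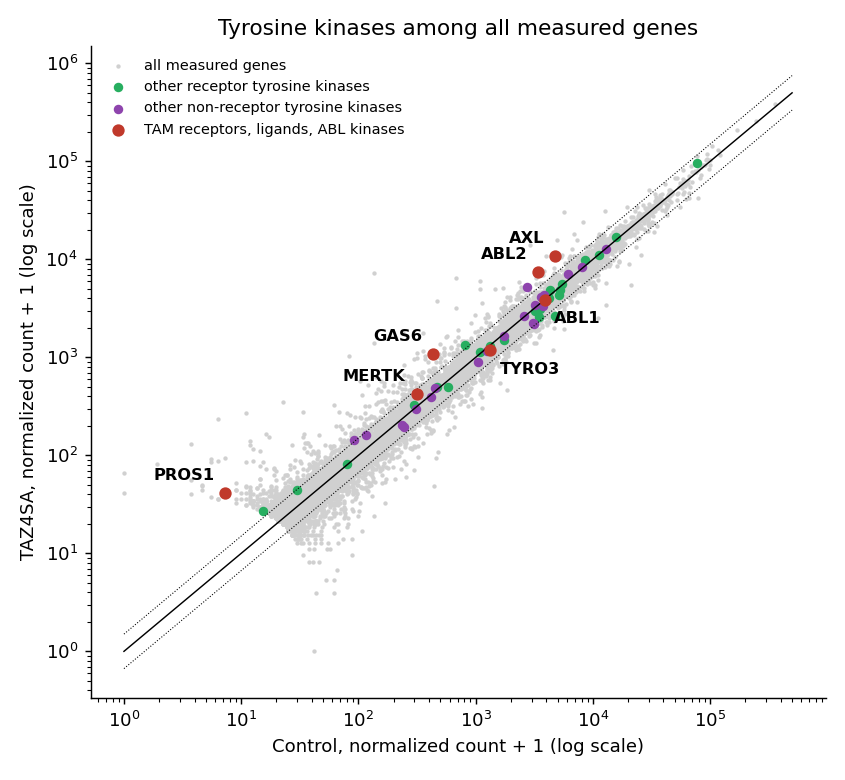
Normalized count + 1 of every measured gene in the control (horizontal) and TAZ4SA (vertical) on logarithmic axes, with the 7 genes in red, other receptor tyrosine kinases in green and other non-receptor tyrosine kinases in purple; the solid line marks equal levels and dotted lines 1.5-fold. AXL, ABL2, GAS6 and PROS1 lie above the upper dotted line, and most other tyrosine kinases lie between the dotted lines.

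The other tyrosine kinases gave a frame for AXL and ABL2. Of 45 measured, 3 were called higher and 1 lower, and their median log2 ratio was -0.0032, against 0.00019 for all measured genes. The share called higher was 6.67%, against 4.16% of all measured genes. Among 24 other receptor tyrosine kinases, FGFR1, a fibroblast growth factor receptor, had 1329 against 804 normalized counts, a ratio of 1.65 (1.505 to 1.81). EPHB6, an ephrin receptor without kinase activity, was 1.79-fold lower (1.70 to 1.89), at 2652 against 4757. The remaining 22 were not called, among them EGFR, 1.26-fold higher (1.24 to 1.27), and MET, 1.09-fold higher (1.06 to 1.11). Ranked by log2 ratio with the TAM receptors, AXL was 1st of 27, MERTK 5th and TYRO3 21st. By level per kilobase, AXL was 5th of the 27 in the control and 4th in TAZ4SA, there behind EGFR, MET and EPHA2. With the length of the longest transcript in place of all exons, it was 8th and 5th.

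Among 21 other non-receptor tyrosine kinases, FYN, a kinase of the SRC family, had 5242 against 2755 normalized counts, a ratio of 1.90 (1.81 to 1.997). LCK, the SRC family kinase of T cells, was scarce, with 144 against 90.9 normalized counts and a ratio of 1.58 (1.19 to 2.11). The other 19 were not called, and 0 of the 21 were lower by 1.5-fold. Ranked by log2 ratio with the ABL kinases, ABL2 was 1st of 23 and ABL1 12th. By level per kilobase ABL2 was 13th of the 23 in the control and 7th in TAZ4SA, and ABL1 was 5th and 6th. With the length of the longest transcript, ABL2 was 13th and 9th and ABL1 7th and 8th.

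Genes that act around the receptors and kinases were read next. Of 17 measured adaptors and effectors of TAM receptors, among them GRB2, subunits of phosphoinositide 3-kinase and the ubiquitin ligase CBL, 0 were called in either direction, with log2 ratios from -0.19 to 0.42 and a median of 0.05. Of 21 measured activators, inhibitors, partners and substrates of ABL kinases, among them the adaptors CRK and CRKL, the ABI proteins and cortactin (CTTN), 0 were called in either direction, with log2 ratios from -0.26 to 0.32 and a median of 0.03. Of all measured genes, 4.16% were called higher and 4.44% lower, with a median of 0.00019, so counts of 0 in lists of this size are close to that background and show nothing particular to them.

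The ligands need gamma-carboxylation to bind phosphatidylserine. Of 10 measured genes of the vitamin K cycle and other Gla-domain proteins, 0 were called higher and 1 lower, again near the 4.16% and 4.44% of all measured genes. Their median log2 ratio was -0.06. GGCX, the carboxylase itself, was at 1535 normalized counts in TAZ4SA and 1758 in the control, a ratio of 0.873 (0.809 to 0.941). VKORC1, which regenerates vitamin K, was at 319 in both libraries, a ratio of 1.002 (0.843 to 1.19). The gene called lower was MGP, a Gla-domain inhibitor of calcification, 1.79-fold lower (1.41 to 2.27) at 142 against 254 normalized counts. Of 9 measured genes of phosphatidylserine exposure, receptor shedding and other reported TAM ligands, 0 were called, which is likewise near that background, and the median log2 ratio was -0.05. ADAM10 and ADAM17, proteases known to shed TAM receptors, had ratios of 1.01 (0.989 to 1.04) and 0.966 (0.937 to 0.997).

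**Figure D5:**
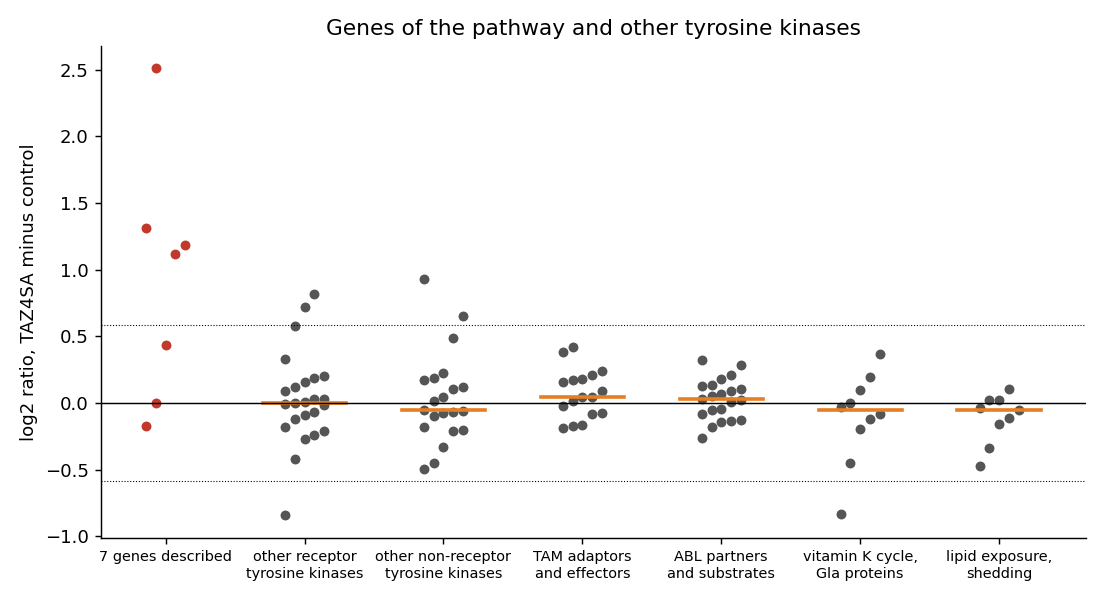
Log2 ratio, TAZ4SA minus control, of each measured gene (points) in the 7 genes described and in 6 related lists, with orange bars at each list's median and dotted lines at 1.5-fold. Of the red points, 4 lie above the upper dotted line, whereas no gene of the TAM effector, ABL partner or phosphatidylserine and shedding lists crosses either line.

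For the genes called higher, the nearest genes were those with the smallest distance in the 2 log2 levels, over 2 libraries. For AXL this was PLK2, a polo-like kinase, at 10583 normalized counts in TAZ4SA and 4764 in the control, a distance of 0.029. TNIP1 and EXT1 followed at 0.18 and 0.19. For ABL2 the nearest were ETS1, SAV1 and FHL2, at 0.13, 0.14 and 0.16. For GAS6 they were DNAJC6, MYBL1 and GLIS2, at 0.10, 0.15 and 0.24, and for PROS1 they were SLAMF7 and EBI3 at 0.29 each and SLC16A9 at 0.33. With 2 libraries, such a likeness is one of level and ratio alone.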

How the data were processed

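RNA sequencing of PC9 cells gave 1 library per group. Per the submitters' processing notes, Trim Galore, STAR, HTSeq, DESeq2 and GRCh37 were used, with no versions or settings given. The deposited signal values are gene read counts that the authors divided by 1 size factor per library (0.689 for TAZ4SA and 1.11 for the control): 100% of values in each column were whole multiples of its step within 0.01 reads, and so gave back 29668388 and 47684754 reads. The authors' deposited log2 fold change matched the log2 ratio of these columns within 0.000136. Here log2 ratios use log2(normalized count + 1), which understates low genes. Intervals are Clopper-Pearson (conditional binomial) for ratios and shares and exact conditional for odds ratios. With 1 library per group no edgeR or DESeq2 test of the recovered reads is possible, and those tools gave scaling factors only. Exon lengths (union of exons) and overlaps come from GENCODE 29 (GRCh38), matched by gene identifier, and upstream sequences from RefSeq. The members and lists were chosen with earlier results of these data known. Beyond the 7 genes and WWTR1, named genes are up to 5 called genes per list, GGCX, VKORC1, ADAM10, ADAM17, copies or antisense genes, and 3 nearest genes per called member; other list genes and markers named are outside this rule and were chosen after their values were seen. Calculations were tested on simulated counts and were run in Python 3.11.15 (scipy 1.17.1, pandas 2.3.3, numpy 2.4.6) and, for scaling, in R 4.3.3 with DESeq2 1.42.0 beside edgeR 4.0.16.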

Additional observations from a re-analysis of the deposited data

How the results depend on the processing

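Scaling by TMM, upper quartile, total counts or DESeq2 median of ratios moved the median of all measured genes by at most 0.0043 on the log2 scale. Under these and pseudocounts of 0.1, 0.5 and 5, the log2 ratios of the 7 genes stayed within their counting intervals: AXL from 1.18 to 1.19, ABL2 at 1.12, GAS6 from 1.31 to 1.32 and PROS1, on few reads, from 2.01 to 2.67. ABL1 ranged from -0.0015 to 0.0062. The number of all genes called moved with the rules by construction: 326 higher and 385 lower with a mean of at least 100, and 267 higher and 219 lower at 2-fold, against 586 and 625. With a mean of at least 100, PROS1 is no longer measured and 3 of the 7 genes are called. List medians stayed within their intervals, as did the odds ratios of AXL to TYRO3, AXL to MERTK, GAS6 to PROS1 and ABL2 to ABL1 with 0.5 added to each count; the other odds ratios were not varied. The length of the longest transcript, the 2-fold count of the 7 genes and the marker summary were added after seeing the data. No replicate could be left out. No paired analysis was possible because there is 1 library per group. Depth limits PROS1 most, with 7 control reads.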
